A study of Mus musculus with 2 samples.

Results

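The expression of 7 myeloid transcription factor genes, Spi1, Cebpa, Cebpb, Cebpd, Cebpe, Irf8 and Gfi1, was followed in single mouse bone marrow cells, cell by cell and between a pair of sorted populations. The genes were taken by their symbols, and all 7 were among the 32285 genes of the deposited matrices. The cells came from wild-type C57Bl6 mice, 8 weeks old according to the title of the series, and the number of mice is not given in the sources used here. One library was labelled ST-HSC, for short-term haematopoietic stem cells, whose stated gate was LSK (lineage negative, Sca-1 and Kit positive), CD34-, CD150+ and CD48+. The other was labelled LT-HSC, for long-term haematopoietic stem cells, gated as LSK cells that lacked CD34, CD48 and Flk2 and carried CD150. There was 1 library per group, so no difference below has a replicate check, no p-value was computed, and genes are described by the size of a ratio. Intervals are exact 95% intervals, Poisson for levels, conditional binomial for ratios and Clopper-Pearson for shares, and cover counting error only.

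Blood cell fate is set in large part by a small number of transcription factors. Spi1 encodes PU.1, an ETS factor needed for both myeloid and lymphoid development, which acts by its dose. Cebpa encodes C/EBPα, the factor that takes progenitors into the granulocyte and monocyte lineage. Cebpb and Cebpd encode relatives of it that are induced by inflammatory signals, and Cebpb is needed for emergency granulopoiesis. Cebpe encodes C/EBPε, which drives the terminal steps of neutrophil differentiation and the secondary granule genes. Irf8 encodes an interferon regulatory factor that pairs with PU.1 and is needed for monocytes and for classical dendritic cells. Gfi1 encodes a zinc finger repressor that is needed for neutrophils and that restrains the cycling of stem cells.

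The kept cells, with at least 1000 genes and under 10% of UMIs (unique molecular identifiers, the tags that count single RNA molecules) from mitochondrial genes, numbered 6648 in ST-HSC and 2722 in LT-HSC. They held 111783180 UMIs in ST-HSC and 64673871 in LT-HSC, at medians of 13402 and 17595 UMIs per cell for ST-HSC and LT-HSC. RNA of 2 gate genes went against the stated gate of the library labelled ST-HSC. Slamf1, which encodes CD150, was at 1.26 CPM (counts per 1000000 UMIs) in ST-HSC and 26.5 CPM in LT-HSC. Cd34 was at 242 CPM in ST-HSC and 29.2 CPM in LT-HSC. RNA of Cd48 and Flt3 went with the stated gates. Cd48 was at 74.7 CPM in ST-HSC, gated as CD48+, and 35.3 CPM in LT-HSC, and the Flk2 gene Flt3 stood at 291 CPM in ST-HSC and 5.50 CPM in LT-HSC, gated as lacking Flk2. Each direction below is between libraries as labelled. A total of 6 barcodes of kept cells occurred in both libraries, and leaving them out left the count of members at least 2-fold higher at 6.

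Cells were put into classes by marker RNA after each was thinned to 5000 UMIs, which 6367 ST-HSC and 2654 LT-HSC cells could supply. These classes are ranges of RNA and not cell types. Each cell went to the first class it met, in the order granule-high, granule-intermediate, erythroid reference, Pf4 reference, Dntt and Hlf. So 30 ST-HSC cells with at least 2 Dntt UMIs and 78 with at least 2 Hlf UMIs were in the granule classes. Granule-high cells had at least 10 UMIs of Mpo, Elane and Ctsg, which encode the primary granule proteins of neutrophil precursors, and granule-intermediate cells had 3 to 9. There were 230 granule-high cells in ST-HSC, or 3.61% (3.17 to 4.10%), and 0 of 2654 in LT-HSC (0 to 0.139%). Dntt cells had at least 2 UMIs of Dntt, a DNA polymerase of early lymphoid cells, and numbered 953 in ST-HSC and 1 in LT-HSC. Hlf cells had at least 2 UMIs of Hlf, a transcription factor of stem cells, and numbered 2974 in ST-HSC and 687 in LT-HSC. Erythroid reference cells, with at least 10 UMIs of Car1 and Klf1, made up 4.46% of the cells in ST-HSC and 28.9% in LT-HSC. The Pf4 reference class, with at least 5 UMIs of the platelet chemokine gene Pf4, held 248 LT-HSC cells. Cells in none of these classes are called unclassed and numbered 1719 in ST-HSC and 952 in LT-HSC. The borders were populated: 33 ST-HSC cells had 10 to 12 granule UMIs and 17 had 8 or 9.

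RefSeq promoter windows (build GRCm38.p6) were available for 4 of the 7 members, with 6 start sites, and not for Spi1, Cebpd and Cebpe. The 250 bases before each start were searched on both strands. Of the members with a window, Cebpa and Irf8 had the largest differences between libraries. Their promoters are shown because a core promoter element was found in both. A link of this element to the differences was not tested. Capitals mark the TATA box, TATAAA, which opens 30 bases before the start in Cebpa and 31 bases before the start in Irf8. The Cebpa window lies at chr7:35119043-35119292 and the Irf8 window, at the first of its 2 starts, at chr8:120736108-120736357, both on the plus strand.
Cebpa: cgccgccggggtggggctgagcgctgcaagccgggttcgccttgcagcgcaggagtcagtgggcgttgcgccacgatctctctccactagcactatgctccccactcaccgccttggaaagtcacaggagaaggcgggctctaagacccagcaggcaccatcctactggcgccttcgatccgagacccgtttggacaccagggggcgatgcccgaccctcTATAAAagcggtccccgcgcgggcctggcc
Irf8: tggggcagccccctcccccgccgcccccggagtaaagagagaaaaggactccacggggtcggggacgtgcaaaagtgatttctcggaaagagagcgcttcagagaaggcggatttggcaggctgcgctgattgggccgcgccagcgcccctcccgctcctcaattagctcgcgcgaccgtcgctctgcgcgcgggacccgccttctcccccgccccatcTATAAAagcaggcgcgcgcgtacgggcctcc
TATAAA was found, at any position and on either strand, in 12.4% of the 32851 windows of all genes. It was in none of the other 4 windows of the members, which belong to Cebpb, Gfi1 and the second start of Irf8. The C/EBP motif TTGCNNAA was found in the second Gfi1 window only, 143 bases before the start, and in 9.56% of all windows. The ETS motif GAGGAA of PU.1 and the IRF-ETS composite motif were in none of the 6 windows, and in 23.3% and 2.30% of all windows. The members lie apart in the genome (mm10). Spi1 is on chromosome 2 from 91082390 to 91115756 and Cebpb on the same chromosome from 167688915 to 167690418. Cebpd is on chromosome 16 from 15887286 to 15891031, Cebpe on chromosome 14 from 54710360 to 54712174, and Gfi1 on chromosome 5 from 107716657 to 107726036.

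Over all kept cells, 6 of the 7 members were at least 2-fold higher in ST-HSC than in LT-HSC, and Cebpb was the exception. Cebpe had a mean under 5 CPM, so 5 of the 6 members that passed that minimum were counted against all genes, of which 10.8% were at least 2-fold higher and 2.88% at least 2-fold lower in ST-HSC. Over the 10412 genes, log2 ratios had a median of 0.12. Spi1 was at 137 CPM in ST-HSC (135 to 140) and 44.8 CPM in LT-HSC, 3.07-fold higher (2.95 to 3.19). Irf8 was at 84.7 CPM in ST-HSC and 5.35 CPM in LT-HSC, 15.8-fold higher (14.2 to 17.7). Gfi1 was at 18.3 CPM in ST-HSC and 3.57 CPM in LT-HSC, 5.13-fold higher (4.47 to 5.90).

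The C/EBP genes went different ways between the libraries. Cebpa was at 9.81 CPM in ST-HSC and 0.572 CPM in LT-HSC, 17.2-fold higher (12.4 to 24.5), the LT-HSC level being 37 UMIs in all. Cebpe had 550 UMIs in ST-HSC and 11 in LT-HSC, or 4.92 and 0.170 CPM in ST-HSC and LT-HSC, 28.9-fold higher (16.0 to 58.3). Cebpd was at 8.02 CPM in ST-HSC and 2.67 CPM in LT-HSC, 3.0-fold higher (2.54 to 3.55). Cebpb was at 41.3 CPM in ST-HSC and 59.2 CPM in LT-HSC, a ratio of 0.699 (0.669 to 0.730). Without the erythroid and Pf4 reference cells, 4 members stayed at least 2-fold higher, with Spi1 at 1.82, Cebpd at 1.91, Gfi1 at 2.61 and Cebpb at 0.427. Without the granule-high cells, which LT-HSC lacked, Cebpe was 2.69-fold higher (1.38 to 5.74) and the other members kept their side of 2-fold.

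**Figure D1:**
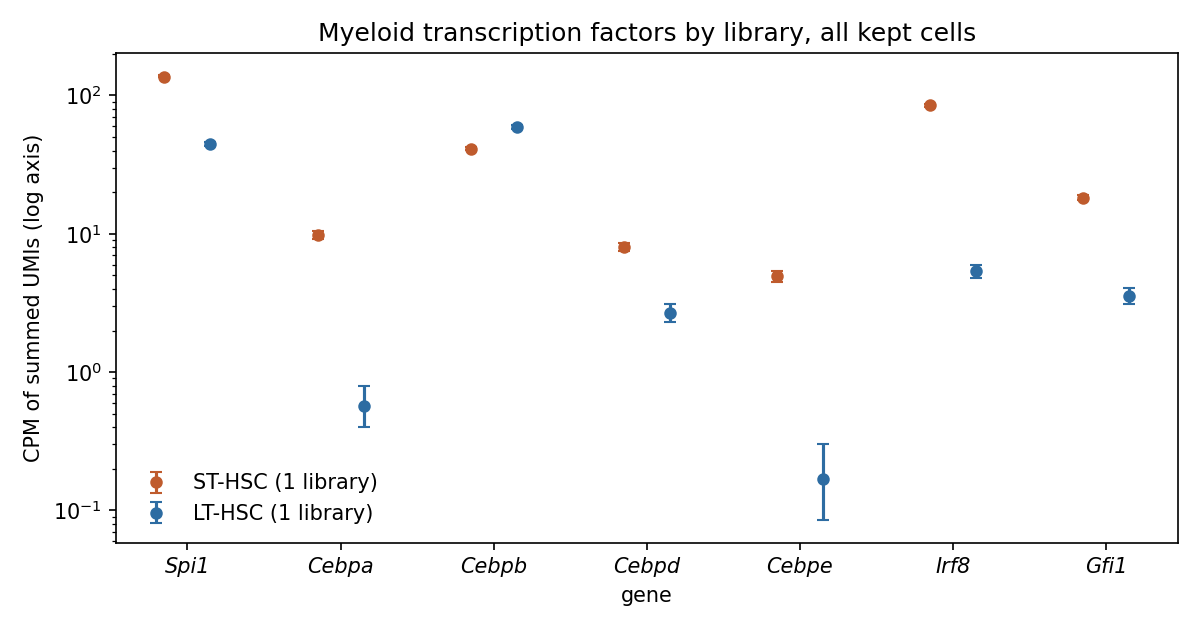
Level of each myeloid transcription factor gene in ST-HSC (left of each pair) and LT-HSC (right), in CPM of summed UMIs on a log axis, with exact Poisson 95% intervals over 1 library each. Cebpb is the gene whose ST-HSC point, at 41.3 CPM, lies below its LT-HSC point, at 59.2 CPM.

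The share of cells in which a member was found followed the same order. At 5000 UMIs per cell, Spi1 was found in 48.5% of cells in ST-HSC and 24.3% in LT-HSC, and without thinning in 75.9% of cells in ST-HSC and 54.2% in LT-HSC. Cebpa was found in 4.43% of thinned ST-HSC cells and 0.377% of thinned LT-HSC cells, or 12.8% of cells in ST-HSC and 1.29% in LT-HSC unthinned, and Cebpe in 1.08% of cells in ST-HSC and 0.226% in LT-HSC. Irf8 was in 13.3% of cells in ST-HSC and 2.79% in LT-HSC, and Gfi1 in 9.25% of cells in ST-HSC and 2.68% in LT-HSC. The members differed in how far they were gathered in few cells. The 5% of ST-HSC cells with most Irf8 held 78.4% of its UMIs, with up to 93 in a cell, while the same share of cells held 20.6% of the Spi1 UMIs, with up to 23 in a cell. Of the 849 thinned ST-HSC cells with Irf8, 269 had 3 or more UMIs of it.

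Of the relatives of the members, 8 of 13 reached 5 CPM, of which 1 was higher and 1 lower by 2-fold. Irf5, an interferon regulatory factor of macrophages, was at 14.7 CPM in ST-HSC and 4.05 CPM in LT-HSC, 3.62-fold higher. Gfi1b, the paralogue of Gfi1 used in erythroid and megakaryocytic cells, was at 22.3 CPM in ST-HSC and 60.6 CPM in LT-HSC, a ratio of 0.368. The median log2 ratio of the relatives was -0.08, against 0.12 for all genes. Of 20 partners and cofactors measured, 9 were higher and 3 lower (median 0.82). Batf3, a factor of cross-presenting dendritic cells that works with Irf8, had 1155 UMIs in ST-HSC and 9 in LT-HSC, 74.2-fold higher (39.0 to 163), and Id2, an inhibitor of E proteins, was 11.8-fold higher. Egr1, an immediate early factor, was at 64.2 CPM in ST-HSC and 189 CPM in LT-HSC, a ratio of 0.340. Of 8 myeloid receptors measured, 7 were higher and 0 lower (median 2.67), among them Csf3r, the receptor of granulocyte colony-stimulating factor, which was 9.87-fold higher (8.99 to 10.9).

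Of 15 monocyte and dendritic cell genes measured, 11 were at least 2-fold higher in ST-HSC and 0 lower (median 1.54), with Xcr1, the chemokine receptor of cross-presenting dendritic cells, at 1176 UMIs in ST-HSC and 1 in LT-HSC, a ratio of 680 (122 to 26897). Of 10 primary granule genes, 7 were higher. Both genes of the secondary granule list that reached 5 CPM, S100a8 and S100a9, were higher, 11.7-fold and 5.0-fold. Of 5 lymphoid progenitor genes measured 4 were higher, as were 4 of 4 basophil and mast cell genes and 2 of 4 T and NK cell genes. Of 5 genes known to be repressed by Gfi1, Id2 alone was at least 2-fold higher. Of 10 erythroid genes 5 were at least 2-fold lower in ST-HSC and 2 higher, and of 8 megakaryocyte genes 7 were lower. Of 9 stem cell genes 2 were higher, Hlf at 3.28 and Mecom at 2.31, and 2 were lower, Pdzk1ip1 at 0.246 and Ctnnal1 at 0.349. The part that these other cells play in the members' ratios was not tested beyond the values without them given above.

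Within ST-HSC, granule-high cells had a higher level of every member than Hlf cells, but by very different ratios. Cebpe, Cebpd, Cebpa and Irf8 were at least 2-fold higher, 4 of 7, where 4.64% of 10307 genes were, and no member was at least 2-fold lower, where 18.4% of those genes were. Over those genes, log2 ratios had a median of -0.29. Cebpe was at 73.4 CPM in granule-high cells and 0.587 CPM in Hlf cells, 125-fold higher (84.2 to 193), and 502 of its 550 UMIs lay in the 230 granule-high cells. Cebpd was at 43.4 CPM in granule-high cells and 5.83 CPM in Hlf cells, 7.45-fold higher (6.28 to 8.83). Cebpa was at 41.5 CPM in granule-high cells and 7.48 CPM in Hlf cells, 5.55-fold higher (4.72 to 6.52). Irf8 was at 132 CPM in granule-high cells and 29 CPM in Hlf cells, 4.56-fold higher (4.18 to 4.97).

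The other members differed by less than 2-fold between these classes. Spi1 was at 215 CPM in granule-high cells and 141 CPM in Hlf cells, 1.52-fold higher (1.44 to 1.61). Cebpb was at 79.5 CPM in granule-high cells and 46.2 CPM in Hlf cells, 1.72-fold higher (1.56 to 1.89). Gfi1 was at 36.2 CPM in granule-high cells and 23.4 CPM in Hlf cells, 1.55-fold higher (1.34 to 1.78). This did not hold across the class, since Gfi1 was at 15.3 CPM in the 83 granule-high cells with 10 to 29 granule UMIs. In granule-intermediate cells Gfi1 was at 14.8 CPM, a ratio of 0.632 (0.486 to 0.810) to Hlf cells. Granule-high cells held more RNA, with a median of 28926 UMIs against 11660.5 in Hlf cells. Raised class limits put Cebpe at 207.

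Beside the members, 9 of 10 primary granule genes were at least 2-fold higher in granule-high cells, of which Mpo, Elane and Ctsg set the class. So were 7 of 12 receptors and 4 of 4 genes measured of the secondary granule list, S100a8 and S100a9 among them. Fcgr3, an Fc receptor of myeloid cells, was at 75.8 CPM in granule-high cells and 0.520 CPM in Hlf cells, and Csf1r, the receptor of macrophage colony-stimulating factor, at 22.5 CPM in granule-high cells and 1.02 CPM in Hlf cells, 22.1-fold higher (15.8 to 31.6). Lcn2, a secondary granule gene, was at 20.2 CPM in granule-high cells and 0.113 CPM in Hlf cells. Counts of lower genes in these lists are to be read beside the 18.4% of all genes that were lower. Of 6 genes known to be repressed by Gfi1, 4 were at least 2-fold lower in granule-high cells and 0 higher (median log2 ratio -1.43, against -0.29 for all genes), with Meis1 at 169 CPM in granule-high cells and 996 CPM in Hlf cells, a ratio of 0.170. Of the partners, 6 of 19 were lower and Zeb2, a transcriptional repressor used in monocytes and dendritic cells, was 2.69-fold higher. Of 8 relatives 3 were lower, Irf2, Irf7 and Irf9, and 0 higher. All 6 basophil and mast cell genes measured were higher in granule-high cells, Prss34 at 159 CPM there and 0.158 CPM in Hlf cells. Of 13 monocyte and dendritic cell genes 4 were higher and 3 lower, and all 9 stem cell genes were lower, of which Hlf set the class they are compared with.

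**Figure D2:**
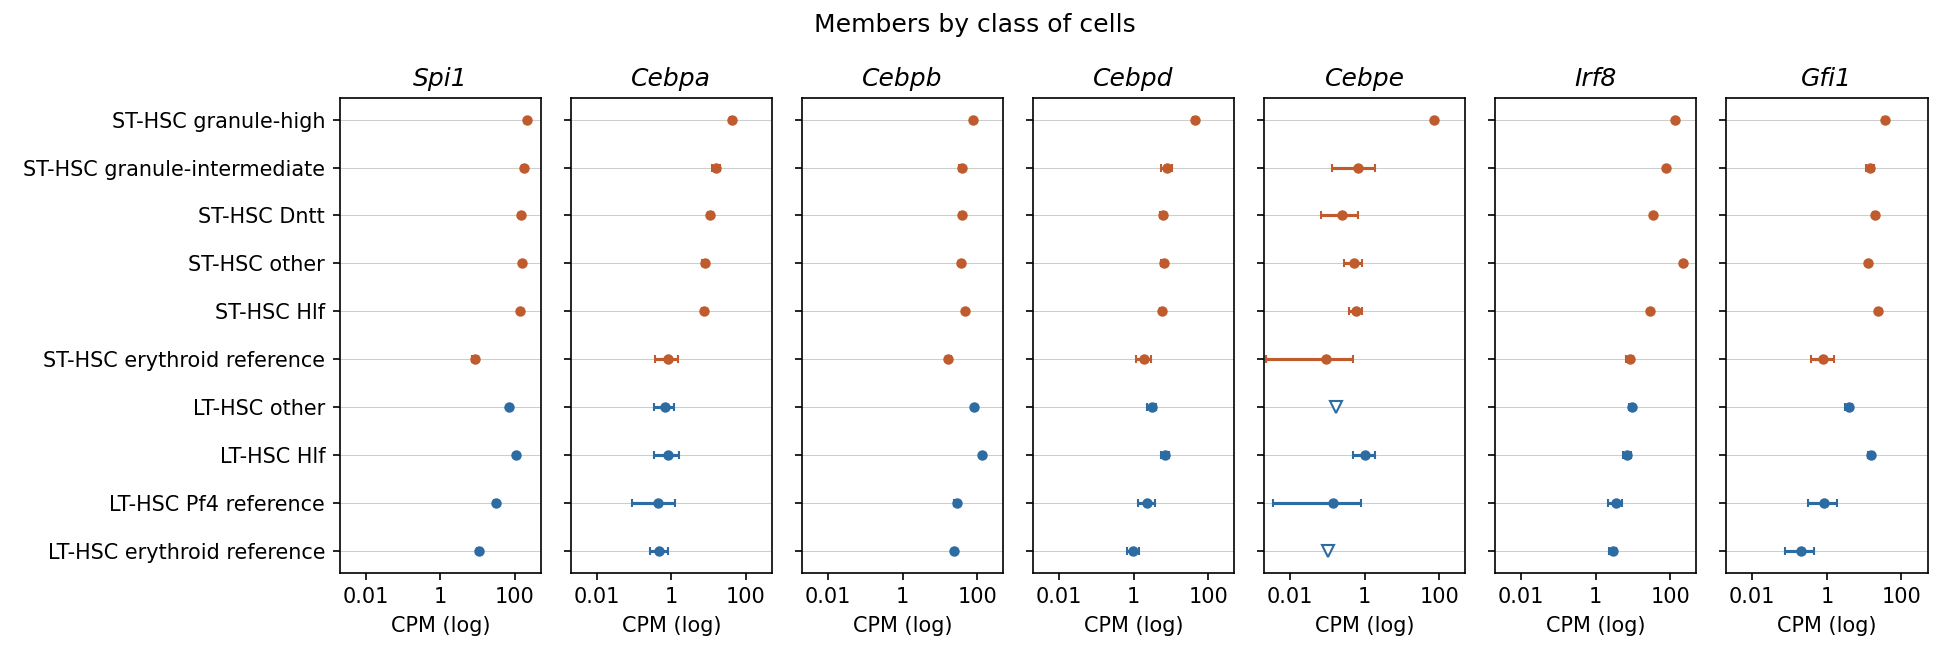
Level of each member in classes of cells of ST-HSC (orange, upper rows) and LT-HSC (blue, lower rows), in CPM of summed UMIs on a log axis with exact Poisson 95% intervals. Rows named other hold the unclassed cells, and open triangles mark a level of 0, placed at the floor of 3 counts. Cebpe stands at 73.4 CPM in granule-high cells of ST-HSC and at most at 1.01 CPM in the other rows, while Spi1 is low in the erythroid reference rows, at 8.50 CPM in ST-HSC and 11 CPM in LT-HSC.

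When ST-HSC cells were ordered by granule RNA, the members did not peak together. Cebpa was at 6.80 CPM in cells with 0 granule UMIs, 16.1 CPM at 3 to 9, 39.8 CPM at 10 to 29, 45.5 CPM at 30 to 99 and 33.6 CPM at 100 or more. Irf8 was at 86.1 CPM at 0, 77.8 CPM at 3 to 9, 122 CPM at 10 to 29 and 180 CPM at 30 to 99, but at 20.5 CPM (13.3 to 30.2) in the 43 cells with 100 or more. Cebpe was under 1 CPM up to 9 granule UMIs, then at 8.75, 75.2 and 189 CPM in the 3 upper ranges. Gfi1 stayed between 14.8 and 17.3 CPM up to 29 granule UMIs, with 33.3 CPM at 30 to 99 and 83.6 CPM at 100 or more. Cebpa thus reached its plateau from 10 granule UMIs on, Cebpe and Gfi1 were highest in the top range, and Irf8 was highest in the range below it.

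**Figure D3:**
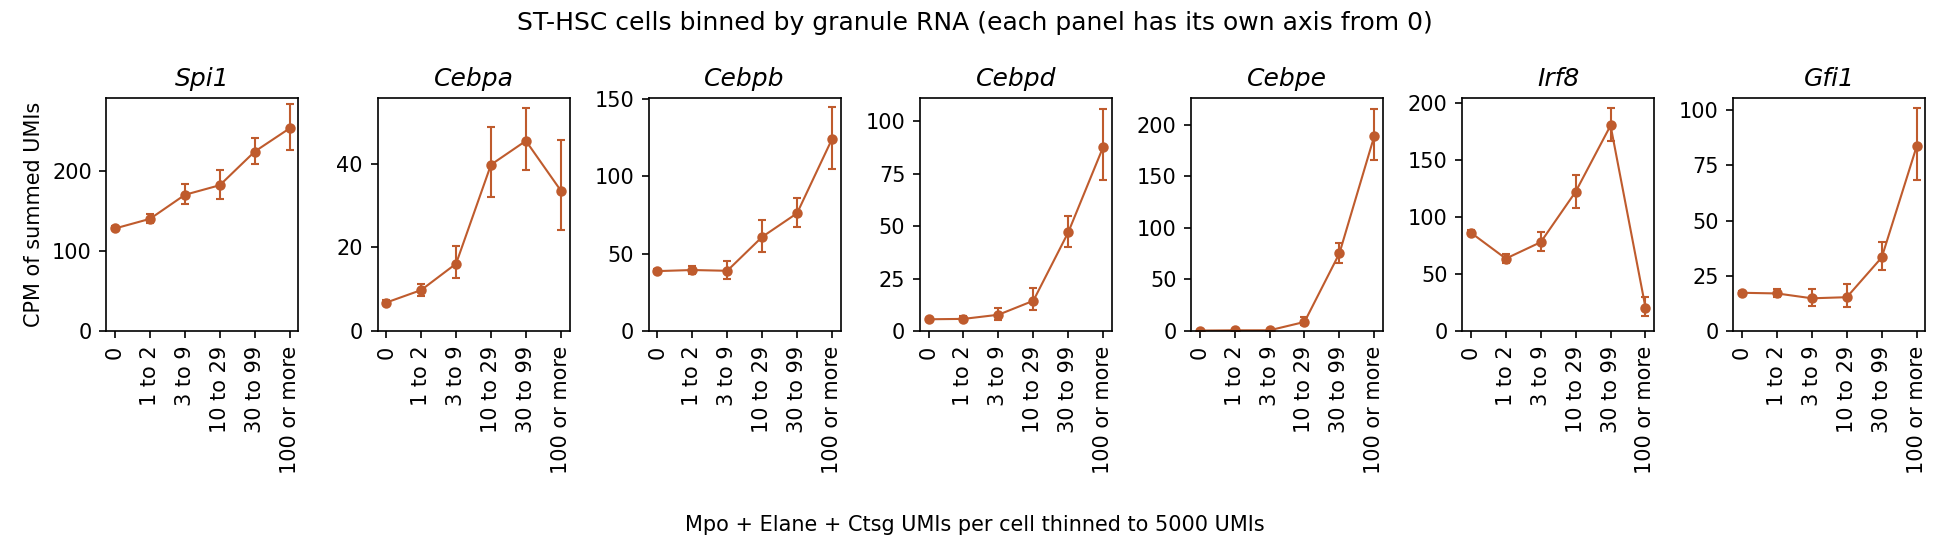
Level of each member in ST-HSC cells by the number of Mpo, Elane and Ctsg UMIs per thinned cell, from 0 to 100 or more, in CPM of summed UMIs with exact Poisson 95% intervals; each panel has its own axis from 0. The top range holds 43 cells, in which Irf8 was at 20.5 CPM and Cebpe at 189 CPM.

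Cebpd and Cebpb went with Cebpe in this order. Cebpd was at 5.58 CPM at 0 granule UMIs, 14.4 CPM at 10 to 29, 47.0 CPM at 30 to 99 and 87.7 CPM at 100 or more. Cebpb was between 38.7 and 39.4 CPM up to 9 granule UMIs and at 60.8, 76.1 and 124 CPM in the upper ranges. Spi1 was at 128 CPM at 0 and 253 CPM at 100 or more.

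Irf8 and Cebpe were seldom found in the same granule-high cell among 5000 UMIs. Of the 230 cells, 52 had Cebpe and no Irf8 among 5000 UMIs, 66 had Irf8 and no Cebpe, 5 had both and 107 neither, a split chosen after the values were seen. Without thinning, both were found in 39 of the 230 cells, of 107 with Cebpe. Cells with Cebpe alone had 2586 CPM of the secondary granule list in sum and cells with Irf8 alone 159 CPM. The sum was led by S100a8, at 1879 CPM with Cebpe alone and 59.4 CPM with Irf8 alone. S100a9 was next, at 615 CPM with Cebpe alone and 1.95 CPM with Irf8 alone. Ltf and Camp, of the same list, were far lower where Cebpe was highest. In the 43 cells with 100 or more granule UMIs, Ltf had 0 UMIs and Camp was at 19.7 CPM. Primary granule genes summed to 29797 CPM with Cebpe alone and 12659 CPM with Irf8 alone. Csf1r was at 3.93 CPM with Cebpe alone and 55.0 CPM with Irf8 alone, and F13a1, a coagulation factor of monocytes, at 42.6 CPM with Cebpe alone and 560 CPM with Irf8 alone. Of the other members, Gfi1 was at 69.5 CPM with Cebpe alone and 8.77 CPM with Irf8 alone. Cebpa, at 36.7 CPM with Cebpe alone and 32.6 CPM with Irf8 alone, and Spi1, at 212 CPM with Cebpe alone and 257 CPM with Irf8 alone, were close to each other. The median depths were 28217.5 UMIs with Cebpe alone and 29467 with Irf8 alone.

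Most Irf8 RNA of ST-HSC lay outside these cells. Granule-high cells held 9.56% of the Irf8 UMIs and unclassed cells 65.6%, and Irf8 was at 222 CPM in unclassed cells of ST-HSC and 9.18 CPM in unclassed cells of LT-HSC, 24.2-fold higher (20.8 to 28.5). At 3 or more thinned UMIs, a limit chosen after the values were seen, there were 269 Irf8-rich cells in ST-HSC, of which 212 were unclassed, 25 were Hlf cells, 23 granule-high and 0 erythroid reference. In LT-HSC there were 3 such cells. The 242 Irf8-rich cells outside the granule classes were compared with other cells outside those classes. Monocyte and dendritic cell genes summed to 1824 CPM in cells with 0 Irf8 UMIs, 4722 CPM in cells with 1 or 2 and 45052 CPM in Irf8-rich cells. Cd74, the invariant chain of MHC class II, was at 14104 CPM in Irf8-rich cells and 523 CPM in cells with 0. Xcr1 was at 264 CPM in Irf8-rich cells and 0.298 CPM in cells with 0, and Batf3 at 195 CPM in Irf8-rich cells and 2.34 CPM in cells with 0. Id2 was at 802 CPM in Irf8-rich cells and 12.4 CPM in cells with 0, and Plbd1, a lysosomal protein gene, at 978 CPM in Irf8-rich cells and 3.09 CPM in cells with 0. Siglech, a receptor of plasmacytoid dendritic cells, was at 8.32 CPM in Irf8-rich cells.

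The levels of the other members in Irf8-rich cells outside the granule classes differed for some and lay close for others. Spi1 was at 332 CPM (314 to 351) in Irf8-rich cells and 120 CPM in cells with 0. Gfi1 was at 3.78 CPM (2.12 to 6.24) in Irf8-rich cells and 17.8 CPM in cells with 0. Cebpb was at 31 CPM (25.8 to 37.0) in Irf8-rich cells and 38.5 CPM (37.2 to 39.8) in cells with 0, and Cebpd at 9.83 CPM (6.99 to 13.4) in Irf8-rich cells and 5.25 CPM (4.78 to 5.75) in cells with 0. Cebpa was at 6.81 CPM in Irf8-rich cells and 7.22 CPM in cells with 0, and Cebpe had 2 UMIs in the Irf8-rich cells. Stem cell genes summed to 778 CPM in Irf8-rich cells and 2570 CPM in cells with 0, and primary granule genes to 383 CPM in Irf8-rich cells and 586 CPM in cells with 0. The median depths were 14020.5 UMIs in Irf8-rich cells and 13238 UMIs in cells with 0.

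**Figure D4:**
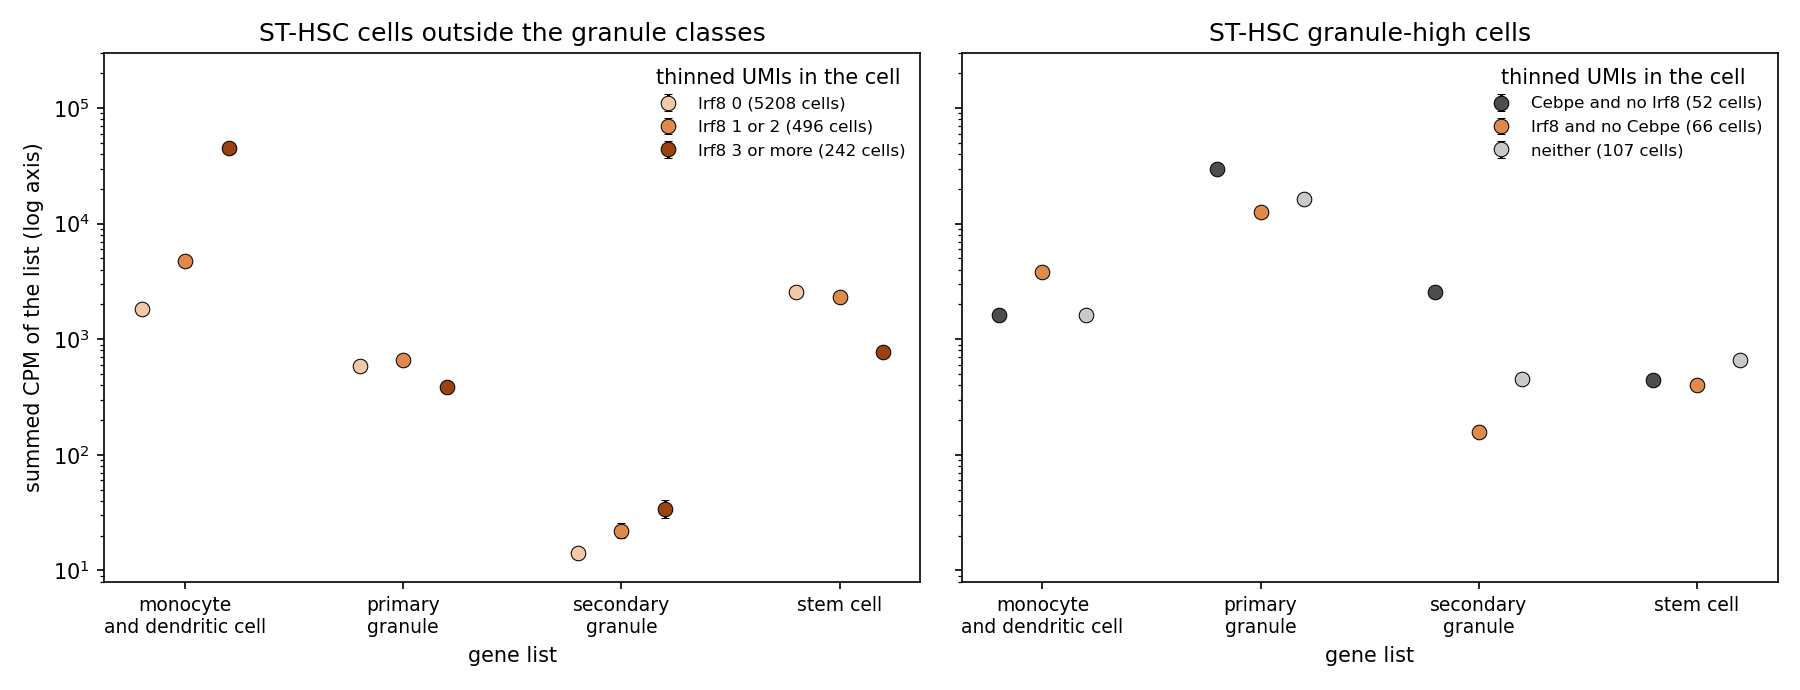
Summed level of gene lists, in CPM on a log axis with exact Poisson 95% intervals, in ST-HSC cells outside the granule classes by Irf8 UMIs (left) and in granule-high cells by Cebpe and Irf8 (right). The secondary granule list, whose sum is led by S100a8 and S100a9, stands at 2586 CPM with Cebpe alone and 159 CPM with Irf8 alone. Monocyte and dendritic cell genes stand at 45052 CPM in Irf8-rich cells.

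Dntt cells, which carry RNA of early lymphoid cells, had summed levels of most members close to those of Hlf cells. The 2 classes share Hlf RNA, which was at 387 CPM in Dntt cells and 836 CPM in Hlf cells. None of the 7 members was at least 2-fold higher in Dntt cells, where 1.01% of 10495 genes were. Cebpe, on 4 UMIs, was the one member at least 2-fold lower. Its mean lay under the minimum of 5 CPM, so it does not count against all genes. Of the 6 members that passed the minimum 0 were at least 2-fold lower, where 1.80% of genes were. Spi1 was at 148 CPM in Dntt cells and 141 CPM in Hlf cells, a ratio of 1.04 (0.995 to 1.10). Cebpa was at 11.1 CPM in Dntt cells and 7.48 CPM in Hlf cells, a ratio of 1.48 (1.23 to 1.79). Irf8 was at 34.3 CPM in Dntt cells and 29 CPM in Hlf cells, a ratio of 1.18 (1.07 to 1.31) that reached 1.89 with raised class limits. That ratio leans on few cells. Of the Irf8 UMIs of ST-HSC, 25 Irf8-rich Hlf cells held 6.57% and 5 Irf8-rich Dntt cells 0.433%. Without thinning, Irf8 was found in 33.1% of Dntt cells and 16.4% of Hlf cells. A ratio between these classes without Irf8-rich cells was not computed. Gfi1 had a ratio of 0.815 (0.715 to 0.927), Cebpb of 0.834 (0.760 to 0.913) and Cebpd of 1.06 (0.831 to 1.34). Cebpe had 4 UMIs in Dntt cells and 26 in Hlf cells, a ratio of 0.429 (0.109 to 1.24) that was 1.14 when cells were thinned to 2500 UMIs. Of 5 lymphoid progenitor genes measured 4 were at least 2-fold higher in Dntt cells, Dntt itself having set the class, and Il7r, the interleukin-7 receptor, was at 26.7 CPM in Dntt cells and 1.22 CPM in Hlf cells. Of 7 receptors and 6 genes repressed by Gfi1, 0 differed by 2-fold. Of 11 monocyte and dendritic cell genes, Plbd1 and Naaa were lower, at 0.163 and 0.235 of the Hlf level.

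Among Hlf cells alone, ST-HSC and LT-HSC differed in Cebpa and Irf8 in one direction and in Cebpb in the opposite one. Of the 7 members 2 were at least 2-fold higher in ST-HSC, where 6.64% of 10728 genes were, and 1 was at least 2-fold lower, where 4.50% were. Cebpa lay under the minimum of 5 CPM, so Irf8 alone counts against that share of higher genes. Cebpa had 331 UMIs in ST-HSC and 8 in LT-HSC, or 7.48 CPM in ST-HSC and 0.808 CPM in LT-HSC, 9.26-fold higher (4.64 to 21.6). Irf8 was at 29 CPM in ST-HSC and 6.86 CPM in LT-HSC, 4.23-fold higher (3.31 to 5.48). Of the 1284 Irf8 UMIs of these ST-HSC cells a large part came from few cells: the class held 13.6% of the Irf8 UMIs of the library, and its 25 Irf8-rich cells held 6.57%. With Irf8-rich cells left out of both libraries, a choice made after the data were seen and one that selects cells by Irf8 itself, the ratio was 2.35 (1.81 to 3.08). Cebpb was at 46.2 CPM in ST-HSC and 139 CPM in LT-HSC, 3.0-fold lower in ST-HSC (2.80 to 3.22).

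The remaining members had ratios of less than 2-fold between Hlf cells of the libraries. Spi1 was at 141 CPM in ST-HSC and 108 CPM in LT-HSC, a ratio of 1.31 (1.23 to 1.40). Gfi1 was at 23.4 CPM in ST-HSC and 15.1 CPM in LT-HSC, a ratio of 1.55 (1.30 to 1.85). Cebpd was at 5.83 CPM in ST-HSC and 6.96 CPM in LT-HSC, a ratio of 0.837 (0.639 to 1.11). Cebpe had 26 UMIs in ST-HSC and 10 in LT-HSC, a ratio of 0.582 (0.271 to 1.35) that was 0.387 by the mean of single-cell CPM. Of 7 receptors measured 4 were higher in ST-HSC and 0 lower, with Tyrobp, a signalling adaptor of myeloid receptors, at 38.5 CPM in ST-HSC and 6.56 CPM in LT-HSC. Of the relatives, Gfi1b was lower in ST-HSC, at a ratio of 0.310 (0.266 to 0.361). Of 19 partners Etv6 was higher and Egr1 and Gata2 lower, and of 6 genes repressed by Gfi1, 0 differed by 2-fold.

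Hlf cells of the libraries also differed beside the members. Hlf, which set the class, was at 836 CPM in ST-HSC and 571 CPM in LT-HSC. Mecom, a stem cell factor, was at 1243 CPM in ST-HSC and 935 CPM in LT-HSC. Procr, a surface gene of stem cells, was at 41.1 CPM in ST-HSC and 86.3 CPM in LT-HSC. Mki67, a gene of cycling cells, was at 189 CPM in ST-HSC and 28.9 CPM in LT-HSC, and Flt3 at 302 CPM in ST-HSC and 15.4 CPM in LT-HSC. Of 10 stem cell genes, Hlf among them, 0 were at least 2-fold higher and 5 lower in ST-HSC, and of 6 megakaryocyte genes 5 were lower. The part of these differences in the members' ratios was not tested.

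Erythroid reference cells, of a lineage in which most of these genes are little used, show how much of the members' RNA was counted in cells of another kind. Droplets without cells were not analysed here, so free RNA and RNA of the erythroid cells themselves cannot be told apart. Mpo was at 8.50 CPM in erythroid reference cells of ST-HSC and 31.2 CPM in Hlf cells of ST-HSC, and Elane at 4.56 CPM in the erythroid and 6.21 CPM in the Hlf cells. Irf8 was at 8.14 CPM in erythroid reference cells of ST-HSC and 29 CPM in Hlf cells, and it was found in 3.17% of thinned erythroid cells and 7.06% of thinned Hlf cells. In erythroid reference cells of LT-HSC Irf8 was at 2.82 CPM, so it was 2.89-fold higher (2.12 to 3.93) in ST-HSC within this class too. Within Hlf cells the ratio was 4.23, and 2.35 without Irf8-rich cells. Cebpa was at 0.805 CPM in erythroid reference cells of ST-HSC and 7.48 CPM in its Hlf cells. In LT-HSC, Cebpa was at 0.476 CPM in erythroid reference cells and 0.808 CPM in Hlf cells, a ratio of 0.589 (0.231 to 1.62), so its LT-HSC level in Hlf cells was within counting error of that level. Spi1 was at 8.50 CPM in erythroid reference cells of ST-HSC and 11 CPM in those of LT-HSC, and Gfi1 at 0.805 CPM in ST-HSC and 0.204 CPM in LT-HSC. Cebpb kept 17.0 CPM in erythroid reference cells of ST-HSC and 24.5 CPM in those of LT-HSC. The median depth was 39270 UMIs in erythroid reference cells and 11660.5 UMIs in Hlf cells of ST-HSC.

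Detection of pairs of members in the same cell was set against the product of their single shares, which is what independent detection would give. Over all 6367 thinned ST-HSC cells, 6 of 21 pairs were found together at least 1.5 times as often as the product and 1 pair was under it by that factor. The highest ratio was that of Cebpd and Cebpe, found together in 15 cells, at 6.07. Cebpa and Cebpe were together in 12 cells (ratio 3.93), Cebpe and Gfi1 in 19 (2.98), and Cebpa and Cebpd in 21 (2.08). The rest of the 6 were Cebpb with Cebpe (1.81) and Cebpb with Cebpd (1.67). In a second thinning draw these fell under the limit, to 1.36 for Cebpb with Cebpe and 1.14 for Cebpb with Cebpd. The pairs of Spi1 with each other member had ratios of 1.09 to 1.22. Without the granule-high and granule-intermediate cells, Cebpe was left in 12 cells and 15 pairs could be counted. Of these 1 was at 1.5 or more, Cebpd and Gfi1 at 1.54, a pair that was at 1.47 over all cells and not among the 6. Cebpe and Irf8 were together in 6 cells, at 0.652, but without thinning in 51 cells at 1.30, so no direction is given for that pair over all cells.

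Within the 230 granule-high cells, Spi1 pairs lay between 0.909 and 1.06. Cebpe was found in 57 cells and Irf8 in 71, and both in 5 cells, 2.17% (0.710 to 5.0%), where the product was 7.65%, a ratio of 0.284. That pair was at 0.279 in cells thinned to 2500 UMIs, at 0.454 when thinned to 10000 and, with both found in 39 cells, at 0.650 unthinned. Cebpe and Gfi1 were together in 18 cells, 7.83% (4.70 to 12.1%), where the product was 3.34%, a ratio of 2.34. That pair was at 1.27 in cells thinned to 2500 UMIs, from 4 cells with both, at 1.49 when thinned to 10000 and at 1.40 unthinned, all under the limit of 1.5. Irf8 and Gfi1 were together in 4 cells, 1.74% (0.476 to 4.39%), where the product was 4.16%, a ratio of 0.418. That pair was at 1.25 in cells thinned to 2500 UMIs, from 6 cells with both. It was at 0.350 when thinned to 10000 and, with both found in 51 cells, at 0.771 unthinned. In LT-HSC, 7 of the 10 pairs with at least 20 cells for each gene reached 1.5, and 1 of 10 within its Hlf cells.

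**Figure D5:**
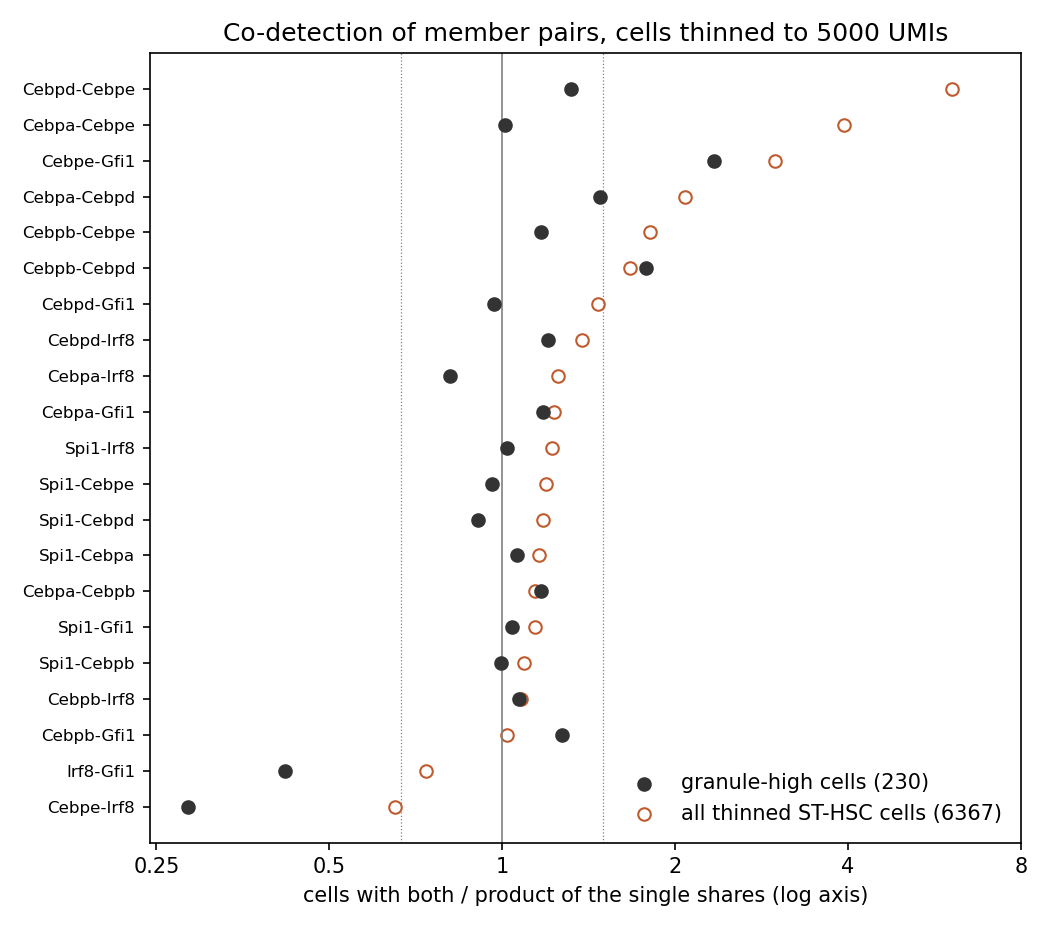
Ratio of the observed share of cells with both members to the product of the single shares, for pairs of members in ST-HSC cells thinned to 5000 UMIs. The pair of Cebpe and Irf8 stands at 0.284 in granule-high cells and the pair of Cebpe and Gfi1 at 2.34.

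Likeness of levels was measured as Pearson's r of log2(CPM + 1) over the 10 groups of at least 50 cells made by class and library, against 2404 other genes, as a description without a test. The groups of one library share its depth and preparation. The gene most like Spi1 was Nfam1 (r = 0.995), an immunoreceptor signalling gene, and that most like Cebpa was Chdh (0.992). Irf8 was most like Ly86 (0.983), a gene of monocytes and dendritic cells, and Cebpe most like Sgms2 (0.992). Gfi1 was most like Ypel2 (0.989), Cebpd most like Hvcn1 (0.970), a proton channel of phagocytes, and Cebpb most like Ifitm7 (0.970). Among the members themselves, Spi1 and Gfi1 had an r of 0.94 and Cebpb and Irf8 of 0.16.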

How the data were processed

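Libraries were prepared with the 10x 3' v2 kit, per the labels' protocols, and counted by the authors with Cell Ranger 7.2 on mm10, per the submitters' processing notes (7.1.0 per the file headers). The deposited values are UMI counts per gene and cell barcode, used as deposited. Cells with at least 1000 genes and under 10% mitochondrial UMIs were kept. UMIs were summed per library or class and given as CPM. Classes and co-detection used cells thinned to 5000 UMIs. A count of 0 was given a floor of 3 counts. Ratios count as higher or lower from 2-fold, and against all genes with a mean of at least 5 CPM. Ddit3 was left out because its symbol stands on more than 1 gene ID, and 1 listed relative is not reported here. Named genes were the 7 members, gate and class genes, genes of the lists, mostly beyond 2-fold, the genes most like each member, and Mki67. Splits by Irf8 and Cebpe UMIs were chosen after values were seen. Doublets were kept: Scrublet (scanpy 1.11.5) marked 0 cells of ST-HSC and 7 of LT-HSC by its automatic threshold, too few to have worked, so the alternative leaves out the 354 ST-HSC and 59 LT-HSC cells with the highest scores. Scalings came from edgeR 4.0.16 and DESeq2 1.42.0 and gene positions from GENCODE M21. The computation used Python 3.11.15, numpy 2.4.6, scipy 1.17.1 and R 4.3.3, and was tested on simulated data. Members and gene lists were chosen with earlier results of these data known.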

Additional observations from a re-analysis of the deposited data

Results flagged for a closer look

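Barcodes left out by the limits on genes and mitochondrial UMIs also held RNA of the members, above the limit that a count of 0 allows. The 7 members summed to 186 CPM (166 to 208) in the 938 left-out barcodes of ST-HSC, and to 305 CPM in its kept cells. They summed to 57.8 CPM (38.4 to 83.5) in the 216 left-out barcodes of LT-HSC, and to 116 CPM in its kept cells.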

How the results depend on the processing

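Of 252 recomputed member ratios, 210 stayed within counting error, 41 moved by more and 1 that was beyond 2-fold changed direction, that of Cebpe between Dntt and Hlf cells, at 1.14 with cells thinned to 2500 UMIs. Cebpd, within counting error of 1, also crossed 1, at 0.926 and 0.960 between Dntt and Hlf cells and at 1.03 and 1.05 within Hlf cells. The count of members at least 2-fold higher over all cells was 6, with 5 for a mean of single-cell CPM (Cebpd 1.85, Cebpe 8.81, Cebpb 0.488) and 4 without erythroid and Pf4 reference cells. Without granule-high and granule-intermediate cells, 1 co-detected pair was counted, of 15, since Cebpe was left in 12 cells. Scaling by TMM shifted log2 ratios over all kept cells by -0.13 and by the median of ratios by -0.15, and within Hlf cells by 0.07 in both, and no member crossed 2-fold. Without a CPM minimum, 17.2% of the genes with 1 or more UMI in each library were at least 2-fold higher in ST-HSC. The causes were not tested. Within Hlf cells, Irf8 ranged from 2.35, without its Irf8-rich cells, to 5.50, Gfi1 from 1.24 to 1.85, Cebpa from 8.21 to 16.1 and Cebpe from 0.387 to 0.982. No paired analysis was possible because each group has 1 library. Levels under about 1 CPM rest on few UMIs, so Cebpe outside granule-high cells and Cebpa in LT-HSC are limited by depth.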

Other observations

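Granule-high cells of ST-HSC with neither Cebpe nor Irf8 among their 5000 UMIs, 107 cells, held RNA of basophils and mast cells in sum. The basophil and mast cell genes summed to 938 CPM in these cells, 264 CPM with Cebpe alone and 44.8 CPM with Irf8 alone. How many of the cells carried this RNA is not given here. Prss34 was at 353 CPM in these cells and at 0 UMIs in granule-high cells with Cebpe alone and with Irf8 alone. Mcpt8, a basophil protease, was at 215 CPM in cells with neither, 43.9 CPM with Cebpe alone and 18.0 CPM with Irf8 alone. Fcer1a, a chain of the IgE receptor, had 90 UMIs in cells with neither and 0 in the other sets. Cebpa was at 49.8 CPM in cells with neither, and Gfi1 at 38.8 CPM. The 3 Irf8-rich cells of LT-HSC had 43 UMIs of Ly6c2, a monocyte surface gene, while the 2580 LT-HSC cells with 0 Irf8 UMIs had 2.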
